A study of Mus musculus with 11 samples.

Results

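The protocadherin genes were followed through the differentiation of E14 mouse embryonic stem cells, a 129 strain line of wild-type genotype, by sequencing of polyadenylated RNA. Members were all genes of the deposited count table whose symbol begins with Pcdh, which gave 36 of 38197 genes. They comprise 1 row for the Pcdha cluster (Pcdhac1), 22 genes of the Pcdhb cluster, 1 row for the Pcdhg cluster (Pcdhgc4) and 12 genes outside the clusters. Groups were unsorted monolayer cultures at day 0, day 1, day 2 and day 3 (2 libraries each) and neural progenitors sorted for Prominin-1 (3 libraries). Retinoic acid and SAG, an agonist of the hedgehog transducer Smoothened, were applied from day 0 to day 3. The sorted cells are called day 3.5 in one label and 3 days in another, and are called sorted day 3.5 progenitors here. All groups share the cell line and genotype. The unsorted groups differ in time and, with it, in how long the agents had been applied. The last group differs also in the sort and in a code in its library names, whose meaning is not given. No label tells whether the libraries of a group are separate cultures, so p-values measure only the spread between these libraries, which may be technical.

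Protocadherins are cell-surface adhesion proteins of the cadherin superfamily and are most diverse in the nervous system. The Pcdha, Pcdhb and Pcdhg genes lie in tandem clusters. In neurons, each cell uses its own small set of promoters, which gives it a surface identity read by homophilic binding and used in dendrite self-avoidance. Each Pcdha and Pcdhg variable first exon is spliced to constant exons shared within its cluster, whereas Pcdhb genes are single-exon units without a constant region. The unclustered protocadherins are separate genes, many of which carry a cytoplasmic tail that binds regulators of the actin cytoskeleton.

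Library totals ran from 13173674 to 30384599 counts, with 26136331 or more in each unsorted library and 17113430 or fewer in each sorted one. Levels are CPM, counts scaled to library size after TMM normalisation. Pluripotency markers summed to 992 to 1048 CPM at day 0, 106 to 168 CPM at day 1 and 11.2 to 15.3 CPM at day 3. Prom1, the gene of the sorting antigen, had 281 to 334 CPM in the sorted progenitors and 214 to 262 CPM in unsorted day 3 cultures, without overlap. Neuron markers summed to 339 to 371 CPM at day 0, 88.5 to 96.8 CPM at day 1, 77.0 to 83.1 CPM at day 2, 823 to 950 CPM at day 3 and 771 to 1238 CPM after the sort, where none of 8 was called different from day 3 by edgeR or DESeq2 (2 at an unadjusted p under 0.05 in edgeR). The day 0 sum does not stand for the whole neuron list. Between day 1 and day 0, edgeR called 2 of the 8 higher and 3 lower (12.0% and 8.91% of all tested genes). Between day 3 and day 0 it called 7 higher and 1 lower, the latter at -1.54 log2 (27.6% and 26.3% of all tested genes). In such bulk samples, fewer cells of a type and less RNA per cell cannot be told apart.

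The Pcdhb genes lie side by side on the plus strand of chromosome 18 (GRCm38, from 37264938 at Pcdhb1 to 37524479 at Pcdhb22). All 22 Pcdhb genes of the GENCODE M21 annotation were in the table. Their summed level was 2.21 and 1.58 CPM in the day 0 libraries, 5.48 and 5.19 CPM at day 1, 26.5 and 21.5 CPM at day 2, and 103.8 and 80.6 CPM at day 3. The sorted day 3.5 libraries had 166, 131.3 and 113 CPM. Each group lay wholly above the one before it, and the group means differed 2.81-fold between day 1 and day 0, 4.49-fold between day 2 and day 1, and 3.85-fold between day 3 and day 2. The ratio of means was 48.6 for day 3 over day 0.

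**Figure D1:**
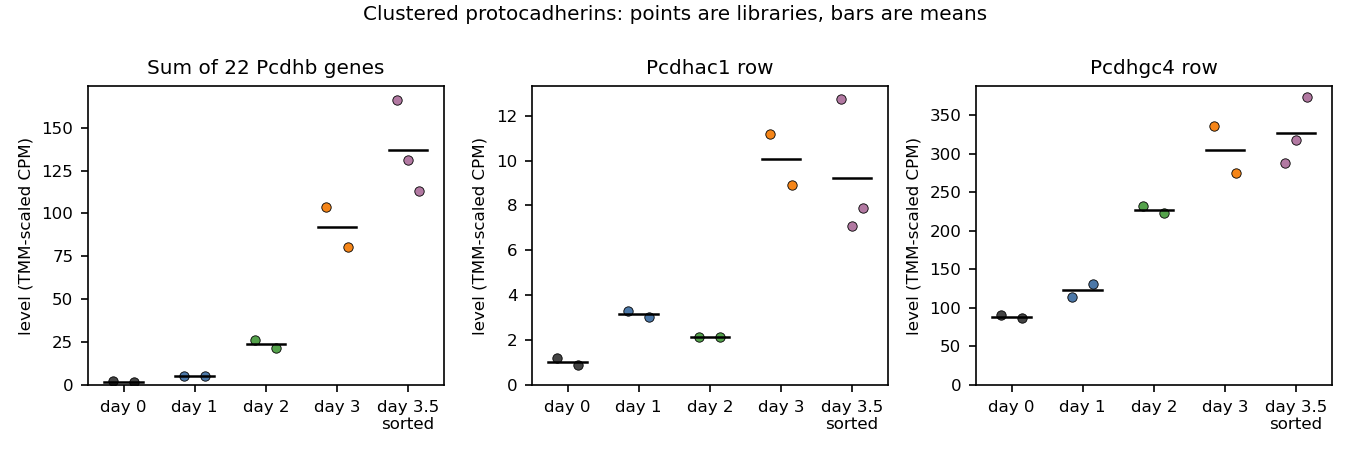
Levels of the clustered protocadherins in TMM-scaled CPM (y axis, linear, from 0) in the 5 groups (x axis). Each point is 1 library and each bar the group mean. The summed Pcdhb level lies highest in the 3 sorted libraries (113 to 166 CPM), the Pcdhac1 row has a dip at day 2, and the Pcdhgc4 row is far above both at every stage.

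The number of Pcdhb genes that could be read grew along with the sum. At a level of at least 0.5 CPM, 1 Pcdhb gene was present in each day 0 library, 3 and 2 in the day 1 libraries, and 12 in each day 2 library. At day 3 and in all 3 sorted libraries the number was 20. Pcdhb22 reached this level in both libraries at day 0, Pcdhb14 first did so at day 1, 10 genes at day 2 and 8 genes at day 3. Pcdhb1 and Pcdhb9 never did: the highest count in any library was 3 for Pcdhb1 and 7 for Pcdhb9. In the 2 day 0 libraries together, 9 of the 22 genes had no count (Pcdhb1, Pcdhb5, Pcdhb9, Pcdhb10, Pcdhb11, Pcdhb12, Pcdhb13, Pcdhb15 and Pcdhb20), which allows each of them up to 3 counts per library and does not show absence. The day 2 level as a percentage of the day 3 level ranged from 3.78% for Pcdhb13 to 41.1% for Pcdhb4 over 20 genes, with a median of 24.1%.

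**Figure D2:**
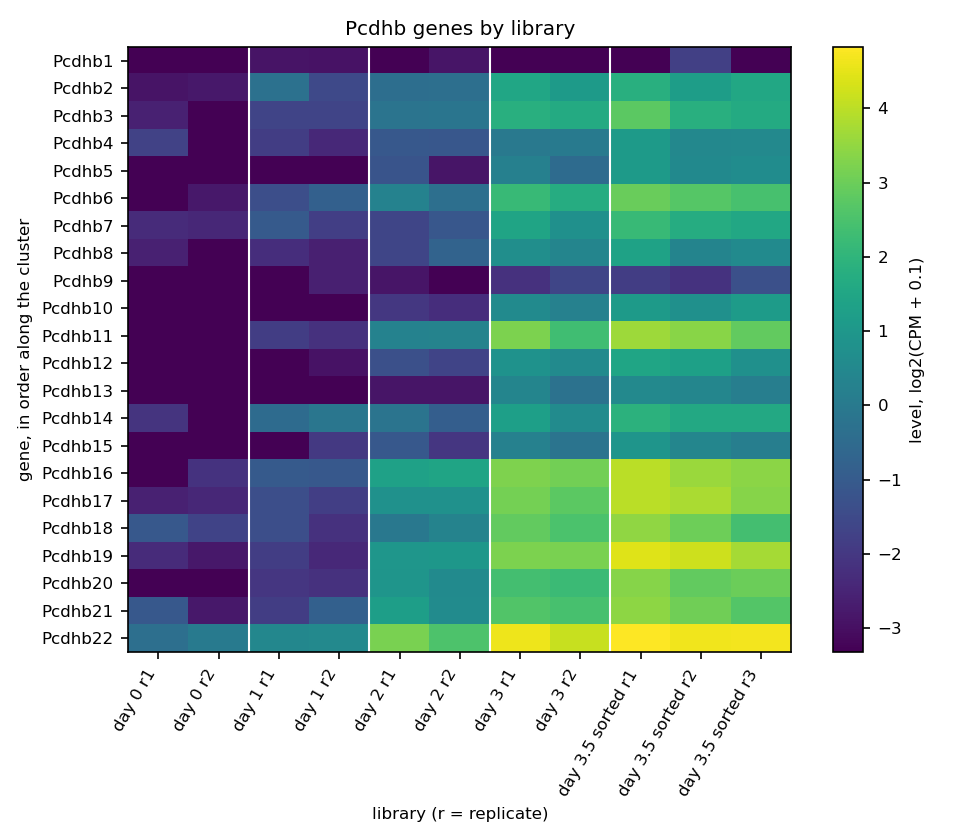
Level of each Pcdhb gene (rows, in their order along the cluster) in each of the 11 libraries (columns, r is the replicate), as log2 of CPM plus 0.1. Colour is the level. Rows brighten between day 1 and day 3, Pcdhb22 at the end of the cluster is bright from day 2 on, and Pcdhb1 and Pcdhb9 stay dark in every library.

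Counts were tested with edgeR's quasi-likelihood F test at a Benjamini-Hochberg adjusted p under 0.05 over all genes that passed a filter on low counts. Of the 36 members, 32 passed it, and Pcdhb1, Pcdhb9, Pcdh15 and Pcdh20 did not. A gene read only late passes through its late libraries and is then likely to differ, so the counts below describe the tested members only. In the test of any change over days 0 to 3, 26 of 32 members were called, against 53.7% of the 16810 genes tested. These were the 20 tested Pcdhb genes, Pcdhac1, Pcdhgc4 and 4 of 10 unclustered genes (Pcdh8, Pcdh12, Pcdh18 and Pcdh19).

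Between day 3 and day 0, 26 members rose and none fell, where 27.6% of all tested genes were called higher and 26.3% lower. Both day 3 libraries lay above both day 0 libraries for 31 of 36 members, 21 of them Pcdhb genes, and below them for none, against 39.5% and 38.0% of all tested genes. The 20 tested Pcdhb genes were all called. The median log2 fold change of the 20 genes was 4.71 with genes lacking day 0 counts set to their lower bound and genes with 1 to 3 counts at their fitted value, against 0.016 over all genes. Against the floor of 3 counts in each day 0 library, Pcdhb11 was at least 60.7-fold higher, Pcdhb20 at least 42.6-fold, Pcdhb12 at least 13.3-fold and Pcdhb10 at least 10.8-fold higher at day 3. Among the Pcdhb genes with more than 3 counts at day 0, Pcdhb4 had the smallest called change, 2.98 ± 0.86 (log2, SE; edgeR adjusted p = 0.0165). That call was lost without day 0 replicate 2 (adjusted p = 0.0613), day 3 replicate 1 (0.0674) or day 3 replicate 2 (0.0634), while the other 19 Pcdhb calls held in every alternative that tested them.

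The step between day 1 and day 0 rested on few reads. Of the tested members 8 were called higher, where 12.0% of all genes were. Among them were 6 Pcdhb genes (Pcdhb2, Pcdhb6, Pcdhb11, Pcdhb14, Pcdhb16 and Pcdhb20), beside Pcdhac1 and Pcdh19, and no member was called lower (8.91% of genes). Both day 1 libraries lay above both day 0 libraries for 15 members and below them for 1 (28.7% and 26.8% of all tested genes). Pcdhb14 had 17 and 26 counts at day 1, against 4 and 0 counts at day 0 (3.19 ± 0.86 log2, adjusted p = 0.0308 by edgeR), a call lost without day 0 replicate 2 (0.0953), day 1 replicate 2 (0.0777), day 2 replicate 1 (0.0523) or day 3 replicate 1 (0.0532). Pcdhb6 had 8 and 15 counts at day 1 and 0 and 1 counts at day 0. Fewer members were called higher without either day 0 library, either day 1 library or day 2 replicate 1. In those fits fewer of all tested genes were called higher as well.

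Between day 2 and day 1, 13 members rose and 1 fell, where 9.65% of genes tested were called higher and 9.99% lower. Of the 13, 10 were Pcdhb genes: Pcdhb3, Pcdhb11, Pcdhb12 and Pcdhb16 to Pcdhb22. The other 3 were Pcdhgc4, Pcdh8 and Pcdh18, and Pcdh19 was the one that fell. Pcdhb14 did not take part, with 21 and 12 counts at day 2, against 17 and 26 counts at day 1. Its groups overlapped (log2 fold change -0.23 ± 0.65, edgeR adjusted p = 0.824). Both day 2 libraries lay above both day 1 libraries for 23 members and below them for 3 (34.2% and 34.1% of all tested genes). Fewer members were called higher without day 2 replicate 1. The call of Pcdh19 as lower was lost without day 1 replicate 1, day 2 replicate 1 or day 2 replicate 2. In those fits fewer of all tested genes were called as well.

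Between day 3 and day 2, 13 members rose and none fell, where the shares of all tested genes were 2.81% and 1.26%. All 20 tested Pcdhb genes had a positive log2 fold change with a median of 2.05, and those with more than 3 counts at day 2 lay between 1.28 and 3.23. Pcdhb13, with 61 counts over both day 3 libraries and 2 over both day 2 libraries, is given without a fold. Of the 20, 10 were called (Pcdhb3, Pcdhb7, Pcdhb10, Pcdhb11, Pcdhb13, Pcdhb16 to Pcdhb19 and Pcdhb22). The other 3 calls were Pcdhac1, Pcdh8 and Pcdh12. Both day 3 libraries lay above both day 2 libraries for 29 members, 21 of them Pcdhb genes, and below them for 2 (30.9% and 31.0% of all tested genes). The calls of this step depended on each library of both days. Leaving out any of these libraries left its day with a single library. Fewer members were called each time, and so were fewer of all tested genes. Over the same step 8 of 8 neuron markers were called higher, among them Dcx, a microtubule protein of migrating neurons (143 CPM at day 3 and 9.84 CPM at day 2). The part of the neuron content in the Pcdhb change was not tested.

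Pcdhb22, the last gene of the cluster, had the highest level of the Pcdhb genes. It had 0.680 and 0.899 CPM in the day 0 libraries, 1.26 and 1.31 CPM at day 1, 9.11 and 5.78 CPM at day 2, 24.6 and 17.6 CPM at day 3, and 28.3, 24.8 and 25.4 CPM in the sorted libraries. Each group lay above the one before it. The log2 fold change was 2.53 ± 0.34 for day 2 over day 1 (edgeR adjusted p = 0.00142) and 4.75 ± 0.37 for day 3 over day 0 (1.62e-05). Per length, it held 35.3 ± 5.25% of the summed Pcdhb FPKM at day 2, 26.6 ± 1.16% at day 3 (SD, n = 2 each) and 22.9 ± 2.76% in the sorted libraries (SD, n = 3). Pcdhb17 came next at 7.53 ± 1.21%, 9.24 ± 0.185% and 10.7 ± 0.825% of the FPKM. The annotated end of Pcdhb21 overlaps the start of Pcdhb22, and the FPKM of Pcdhb22 implied a length of 3895 bases where its longest M21 transcript has 6609. Its share by length therefore depends on the transcript model the authors used.

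Pcdhb19 had 0.102 and 0.0428 CPM at day 0, 0.180 and 0.0938 CPM at day 1, 1.86 and 1.89 CPM at day 2, 9.22 and 8.91 CPM at day 3, and 21.4, 18.2 and 13.1 CPM after the sort. Days 0 and 1 overlapped, and each later group lay above all earlier ones. Of all members it had the smallest adjusted p over days 0 to 3 (1.29e-05, edgeR), with a log2 fold change of 3.76 ± 0.46 for day 2 over day 1 (adjusted p = 0.000876) and 6.84 ± 0.50 for day 3 over day 0 (1.13e-05). Pcdhb17 had 0.0680 and 0.0857 CPM at day 0, 0.289 and 0.188 CPM at day 1, 1.64 CPM in both day 2 libraries, 8.68 and 6.80 CPM at day 3, and 15.7, 13.7 and 10.1 CPM after the sort. Its groups did not overlap (6.60 ± 0.49 log2 for day 3 over day 0, edgeR adjusted p = 1.24e-05). Pcdhb16 had 0 and 0.128 CPM at day 0, 0.397 and 0.375 CPM at day 1, 2.45 and 2.58 CPM at day 2, 9.47 and 8.52 CPM at day 3, and 15.8, 12.1 and 10.5 CPM after the sort. It too stepped up at each stage without overlap, from 3 counts in all at day 0.

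Within the cluster, the order of the genes by FPKM was similar at day 2, at day 3 and after the sort. Over the 22 genes, which share their libraries and transcript models, Spearman's rho was 0.94 between day 2 and day 3 and 0.97 between the sorted progenitors and day 3, against 0.98 between the 2 day 3 libraries. FPKM also tended to be higher towards the Pcdhb22 end, with a rho of 0.54 between day 3 FPKM and position and 0.53 in the sorted progenitors. Pcdhb genes resemble each other in sequence: between 0% and 12.0% of their 50-base windows (median 4.45%) also occur in another gene, and the sources used here do not say how the authors treated such reads. Among the 11 Pcdhb genes with at most 5% shared windows, a limit set after seeing the data, 10 were tested. Of these, 3 rose in day 1 over day 0 and 5 in day 2 over day 1 (12.0% and 9.65% of all tested genes). In day 3 over day 2 and day 3 over day 0, 6 and 10 rose (2.81% and 27.6% of all tested genes).

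The Pcdha and Pcdhg clusters appear in the table only as Pcdhac1 and Pcdhgc4, where M21 names 13 Pcdha and 22 Pcdhg symbols. In M21, 52.4% of the 50-base windows of Pcdhac1 and 37.1% of those of Pcdhgc4 also occur in other genes, through the shared constant exons. The sources used here do not say which transcripts were counted under each row, so each row may hold reads of its whole cluster and is not assigned to a single isoform. The C-type isoforms that name these rows are those that many neurons use in common.

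The Pcdhac1 row had 1.19 and 0.899 CPM at day 0, 3.28 and 3.03 CPM at day 1, 2.16 and 2.15 CPM at day 2, 11.2 and 8.91 CPM at day 3, and 12.7, 7.07 and 7.87 CPM after the sort. It rose at day 1 over day 0 (1.58 ± 0.32 log2, edgeR adjusted p = 0.00925). That call held in 15 of 17 alternatives and was lost in limma on log2(FPKM + 1) with and without the FPKM filter (0.126 and 0.117). The row lay lower in both day 2 libraries than in both day 1 libraries, a difference that did not pass (-0.55 ± 0.30, edgeR adjusted p = 0.220). It rose again at day 3 over day 2 (2.23 ± 0.30, edgeR adjusted p = 0.00843), a call that held in 13 of 17 alternatives. It was lost without either day 2 library or day 3 replicate 1, and in limma on log2(FPKM + 0.1) (0.0678). The Pcdhgc4 row had 90.8 and 86.6 CPM at day 0, 114 and 131.3 CPM at day 1, 232 and 223 CPM at day 2, 336 and 275 CPM at day 3, and 288, 319 and 374 CPM after the sort. Each unsorted day lay above the one before it. Its log2 fold change was 0.90 ± 0.16 for day 2 over day 1 (edgeR adjusted p = 0.00511, and 0.0567 without day 2 replicate 1) and 1.79 ± 0.16 for day 3 over day 0 (3.21e-05). The ratio of day 3 to day 0 means was 3.45 for Pcdhgc4, 9.62 for Pcdhac1 and 48.6 for the Pcdhb sum. Shares were taken of the CPM summed over the Pcdhb genes and the Pcdhac1 and Pcdhgc4 rows. The Pcdhb genes made up 22.1 and 23.0% of it at day 3 and 1.78 and 2.35% at day 0. Clustered transcripts were thus already present at day 0 and, among the rows of the table, lay almost wholly in the Pcdhgc4 row. Pcdha and Pcdhg transcripts that neither row counts are not covered.

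Outside the clusters, 4 of 10 tested genes rose between day 3 and day 0, where 27.6% of all tested genes did, 1 rose at day 1 and fell at day 2, and 5 did not pass in any comparison. Promoters of the first genes described are shown because they follow different courses: Pcdh8 and Pcdh18 rose at day 2, Pcdh19 at day 1. The sequences are from RefSeq (GRCm38.p6, 250 bases before to 50 after the gene start), at chr14:79771263-79771562, chr3:49757267-49757566 and chrX:133688944-133689243, all on the minus strand. Capitals mark CpG dinucleotides and, in Pcdh8, the TATA box.
Pcdh8 promoter: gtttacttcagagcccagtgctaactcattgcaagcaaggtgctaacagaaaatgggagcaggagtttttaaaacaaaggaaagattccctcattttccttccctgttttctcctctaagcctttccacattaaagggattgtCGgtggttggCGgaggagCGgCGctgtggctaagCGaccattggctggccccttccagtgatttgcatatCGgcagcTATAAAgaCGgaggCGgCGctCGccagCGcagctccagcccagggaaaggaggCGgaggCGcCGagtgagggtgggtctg
Pcdh18 promoter: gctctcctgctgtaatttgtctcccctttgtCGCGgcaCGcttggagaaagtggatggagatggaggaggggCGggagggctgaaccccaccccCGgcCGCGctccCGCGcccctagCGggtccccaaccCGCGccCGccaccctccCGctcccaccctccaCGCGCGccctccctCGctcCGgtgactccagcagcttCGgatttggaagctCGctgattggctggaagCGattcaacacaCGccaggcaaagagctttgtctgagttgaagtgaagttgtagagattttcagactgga
Pcdh19 promoter: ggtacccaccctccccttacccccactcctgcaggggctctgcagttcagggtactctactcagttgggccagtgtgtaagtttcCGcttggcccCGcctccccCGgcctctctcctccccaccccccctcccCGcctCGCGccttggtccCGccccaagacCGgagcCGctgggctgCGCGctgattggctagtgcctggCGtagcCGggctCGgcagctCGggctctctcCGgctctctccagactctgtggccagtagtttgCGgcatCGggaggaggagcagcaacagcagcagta

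The Pcdh8 promoter holds 14 CpG and 54.3% GC, with TATAAA starting 30 bases before the gene start. Pcdh18 holds 23 CpG and 63.0% GC, and Pcdh19 holds 18 CpG and 67.7% GC, each without TATAAA. Over 32851 promoters of the same length, the medians were 7 CpG and 52.7% GC, and 13.6% held TATAAA on either strand. None of the 3 windows held the E-box CAGCTG (16.3% of all promoters), the retinoic acid receptor half-site AGGTCA (16.3%) or the Gli motif GACCACCC (0.8%), searched on both strands without allowing mismatches.

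Pcdh8, called paraxial protocadherin for its place in the paraxial mesoderm of the mouse embryo and also an activity-regulated protein of hippocampal synapses, gained most of the unclustered genes. It had 0.476 and 1.2 CPM at day 0, 0.505 and 1.25 CPM at day 1, 5.46 and 4.58 CPM at day 2, 28.5 and 14.7 CPM at day 3, and 22.2, 18.7 and 25.7 CPM after the sort. Days 0 and 1 overlapped, and day 2 and day 3 each lay above them. The log2 fold change was 2.50 ± 0.54 for day 2 over day 1 (edgeR adjusted p = 0.0129, and 0.0573 and 0.0702 without day 1 replicate 1 and day 2 replicate 1) and 4.72 ± 0.57 for day 3 over day 0 (0.000172). The difference of day 3 from day 2 passed (2.11 ± 0.49, edgeR adjusted p = 0.0487) but was lost without any of the 4 libraries of those days. It held in 8 of 17 alternatives. With all libraries kept it was lost in edgeR with a replicate block (0.0862). It was also lost in limma on the deposited log2 values (0.103), log2(FPKM + 1) (0.0777) and log2(FPKM + 0.1) (0.127). Markers of paraxial and primitive streak mesoderm summed to 11.01 to 22.3 CPM at day 0 and 32.65 to 33.05 CPM at day 1. The sum was 22.05 to 22.9 CPM at day 2 and 6.07 to 14.6 CPM at day 3. Mesp1 had 0 counts at days 2 and 3, and Msgn1 had 0 counts in every group. Of the 6 markers 3 were tested, with log2 fold changes from -1.63 to 2.37 for day 3 over day 2. Of these, 1 was above 0, 2 had an unadjusted p under 0.05 and edgeR called 0. Their part in the Pcdh8 level was not tested.

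Pcdh18, a delta-type protocadherin whose tail binds the adaptor Dab1 in the mouse, had 5.0 and 6.21 CPM at day 0, 6.86 and 5.35 CPM at day 1, 24.5 and 24.8 CPM at day 2, 26.1 and 36.2 CPM at day 3, and 52.0, 48.2 and 35.1 CPM after the sort. Days 0 and 1 overlapped and every later library lay above them. Its step came at day 2 (2.02 ± 0.26 log2 over day 1, edgeR adjusted p = 0.00109), and this call held in every alternative. Day 3 over day 0 gave 2.48 ± 0.26 (7.81e-05).

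Pcdh19, an X-linked gene mutated in a human epilepsy and a partner of N-cadherin, had its maximum at day 1. Its levels were 3.94 and 4.97 CPM at day 0, 14.1 and 13.3 CPM at day 1, 5.5 and 6.62 CPM at day 2, 4.25 and 3.84 CPM at day 3, and 2.45, 2.14 and 1.25 CPM after the sort. Both day 1 libraries stood above all others, and day 3 overlapped day 0. It rose at day 1 over day 0 (1.62 ± 0.26 log2, edgeR adjusted p = 0.00374), a call that held in every alternative. It fell at day 2 relative to day 1 (-1.17 ± 0.26, 0.0138), which was lost without day 1 replicate 1 (0.0594), day 2 replicate 1 (0.157) or day 2 replicate 2 (0.0781).

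Pcdh12, known from endothelium and trophoblast, had 0.170 and 0.385 CPM at day 0, 0.180 and 0.0938 CPM at day 1, 0.223 and 0.291 CPM at day 2, 1.60 and 1.37 CPM at day 3, and 0.179, 1.82 and 0.588 CPM after the sort. Both day 3 libraries stood above all earlier ones (2.44 ± 0.59 log2 over day 0, edgeR adjusted p = 0.00693), whereas the sorted libraries were spread from 0.179 CPM, within the day 0 values, to 1.82 CPM, above both day 3 values. The difference of day 3 from day 2 (2.51 ± 0.59, edgeR adjusted p = 0.0496) was lost without any of the 4 libraries of those days. It held in 7 of 15 alternatives. With all libraries kept it was lost in DESeq2 (0.0563) and in limma on the deposited log2 values (0.0691). In edgeR it was lost with a replicate block (0.09) or all 11 libraries in the fit (0.0787). Of 5 endothelial markers, Cdh5 had 13.3 and 11.4 CPM at day 3 and 4.61 and 3.82 CPM at day 2, Pecam1 had at most 1.42 CPM at either day, and Emcn had no counts there. Of the 4 tested, edgeR called 1 higher and 0 lower for day 3 over day 2 (2.81% and 1.26% of all tested genes). Their log2 fold changes ran from -0.51 to 1.56 with a median of 0.04, and 2 were above 0. The list summed to 52.1 to 66.2 CPM at day 0, 34.5 to 36.6 CPM at day 1, 13.5 to 17.4 CPM at day 2 and 20.6 to 25.1 CPM at day 3. Its part in the Pcdh12 level was not tested.

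Pcdh10, which binds the WAVE complex that builds branched actin, had 0.377 and 0.845 CPM at day 3 and 0.102 and 0.0857 CPM at day 0. It had 0.0722 and 0.344 CPM at day 1, 0.409 and 0.327 CPM at day 2, and 1.196, 0.6485 and 0.368 CPM after the sort. Day 3 lay above day 0 (2.64 ± 0.87 log2, edgeR adjusted p = 0.0283), but only 5 counts stood behind the day 0 level. With all libraries kept, DESeq2 did not call it (adjusted p = 0.063), nor did limma on log2(FPKM + 1) without a filter (0.179). Pcdh10 was also not called in the edgeR F test of any change over days 0 to 3 (adjusted p = 0.0969). The call was lost without either day 0 library (0.0958 and 0.110), without either day 2 library (0.0552 and 0.0531) and without day 3 replicate 2 (0.175).

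The other 5 tested genes did not pass between day 3 and day 0. Pcdh1, an adhesion protein of epithelia, had 40.2 and 17.1 CPM at day 0, 16.3 and 24.7 CPM at day 1, 22.1 and 35.2 CPM at day 2, 22.8 and 18.2 CPM at day 3, and 18.5, 21.5 and 20 CPM after the sort. The 2 day 0 libraries were farther apart than any 2 group means, and the direction depended on them: day 3 over day 0 gave 0.27 without day 0 replicate 1 (adjusted p = 0.563) and -0.96 without day 0 replicate 2 (0.0469). Pcdh7, a delta-type protocadherin of axons, had 1.90 and 2.14 CPM at day 0, 1.34 and 0.625 CPM at day 1, 2.83 and 2.15 CPM at day 2, 5.19 and 2.21 CPM at day 3, and 4.24, 4.54 and 4.27 CPM after the sort. Day 1 lay below all other groups, without a call (day 1 over day 0 -1.05 ± 0.52 log2, edgeR adjusted p = 0.187).

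Pcdh17, a presynaptic protocadherin of corticobasal circuits in the mouse, had 0.612 and 0.343 CPM at day 0, 0.108 and 0.563 CPM at day 1, 0.744 and 0.582 CPM at day 2, 1.32 and 1.79 CPM at day 3, and 1.49, 1.62 and 1.40 CPM after the sort. Day 3 lay above all earlier libraries and did not pass over day 0 (1.68 ± 0.65 log2, edgeR adjusted p = 0.0540, and 0.0205 and 0.0218 without day 1 replicate 1 or 2). Pcdh9 had 0.306 and 0.214 CPM at day 0, 0.974 and 0.438 CPM at day 1, 0.0744 and 0.218 CPM at day 2, 0.346 and 1.11 CPM at day 3, and 2.03, 0.843 and 0.809 CPM after the sort. Its day 2 and day 0 libraries overlapped, and no comparison of it passed. Pcdh11x ran from 0 to 0.794 CPM over the 11 libraries, and its groups overlapped widely. The untested Pcdh15 and Pcdh20 were close to the floor of 3 counts: Pcdh15, a part of the tip link of inner-ear hair cells, had at most 4 counts in a library, and Pcdh20 at most 5.

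**Figure D3:**
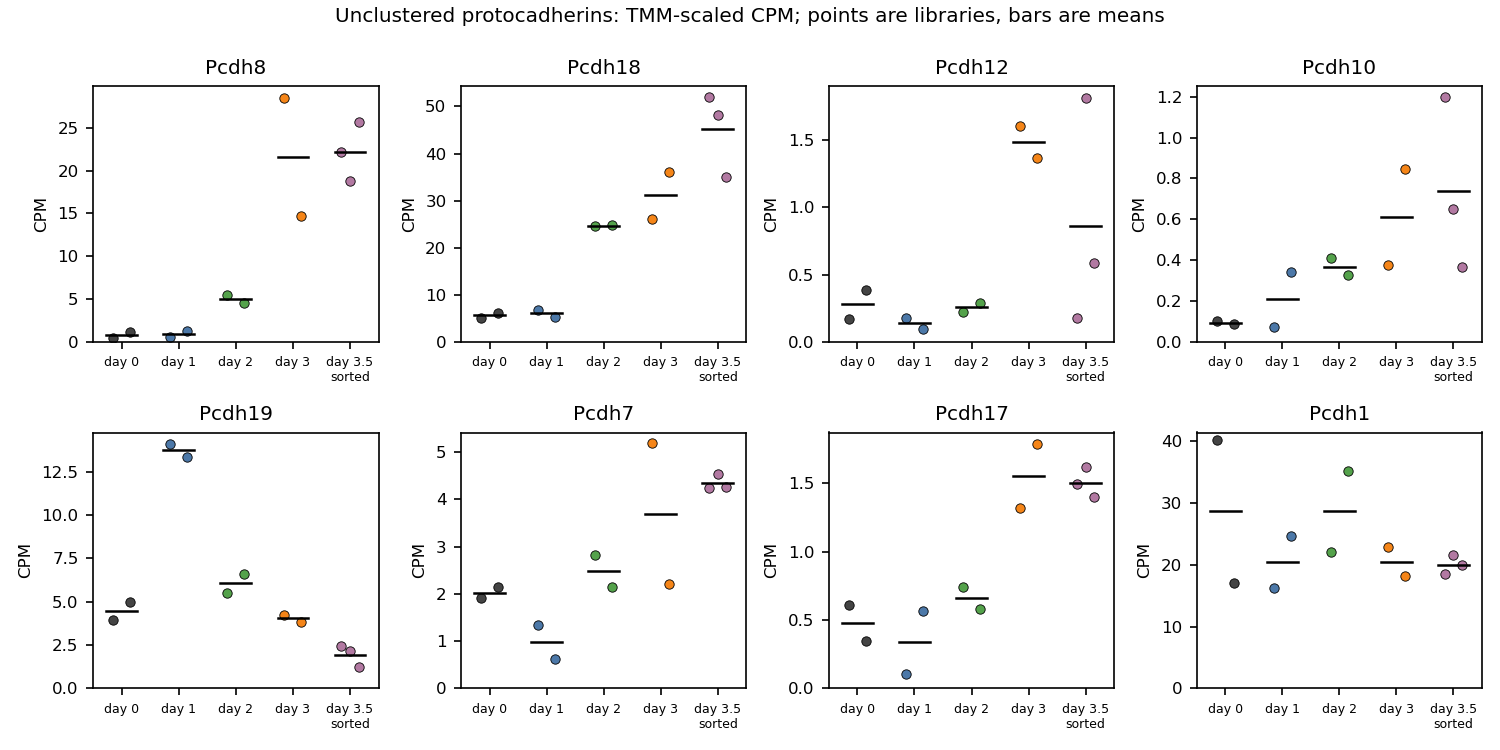
Levels of 8 unclustered protocadherins in TMM-scaled CPM (y axes, linear, from 0, with a scale of their own) in the 5 groups. Points are libraries and bars are means. Pcdh8 and Pcdh18 step up at day 2, Pcdh19 stands highest at day 1, and Pcdh1 has its widest spread between the 2 day 0 libraries.

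The sorted day 3.5 progenitors were set against unsorted day 3 cultures in a fit of all 11 libraries. The sort, the time, with it any time off the agents, and the code in the library names differ together here and cannot be told apart. edgeR called none of the 32 tested members, where 0.435% of 17006 genes were called higher and 2.93% lower. At an unadjusted p under 0.05 there were 6 members, and DESeq2 called 2 (Pcdhb19 higher at an adjusted p of 0.0108, Pcdh19 lower at 0.0244). Without the filter on low counts edgeR called Pcdh19 lower (0.0418), and without sorted replicate 3 it called Pcdhb19 higher (0.0493).

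Although edgeR called no Pcdhb gene, the 20 tested ones all had a positive log2 fold change, between 0.24 and 0.96 with a median of 0.55, where the median of all genes was -0.005. For 12 of 22 Pcdhb genes, and no other member, all 3 sorted libraries lay above both day 3 libraries (14.3% of tested genes did so). Pcdhb19 and the lower-level Pcdhb5 stood at the top of that range. Pcdhb5 had 0.96 ± 0.60 (edgeR adjusted p = 0.503), and Pcdhb19 had 0.96 ± 0.26 (0.0786), with 21.4, 18.2 and 13.1 CPM in sorted progenitors, against 9.22 and 8.91 CPM at day 3. Pcdhb17 had 0.77 ± 0.25 (0.151). Pcdhb22, the most abundant per length, had 0.31 ± 0.23 (0.578). The Pcdhac1 row (-0.12 ± 0.28, 0.899) and the Pcdhgc4 row (0.10 ± 0.14, 0.817) overlapped between the groups.

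Pcdh19 was the single member with all sorted libraries below day 3, at 2.45, 2.14 and 1.25 CPM in sorted progenitors, against 4.25 and 3.84 CPM at day 3 (-1.04 ± 0.28 log2, edgeR adjusted p = 0.0759, where 19.1% of tested genes lay wholly below). Pcdh18 had 0.54 ± 0.22 (0.261) with overlap, Pcdh8 0.04 ± 0.37 (0.985) and Pcdh12 -0.79 ± 0.66 (0.634). Beside these values, neural progenitor markers summed to 1318 to 1585 CPM in sorted progenitors and 963 to 977 CPM at day 3. Of these 6 markers edgeR called 1 higher, and 4 had a log2 fold change above 0. The changes ran from -0.35 to 2.76 with a median of 0.24. Extraembryonic endoderm markers summed to 33.5 to 39.1 CPM in sorted progenitors and 135 to 173 CPM at day 3, with 5 of 5 tested called lower. The endothelial list gave 9.92 to 16.4 CPM in sorted progenitors and 20.6 to 25.1 CPM at day 3. Of its 4 tested genes edgeR called 1 lower, and 1 had a log2 fold change above 0. The part of these shifts in the protocadherin values was not tested.

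**Figure D4:**
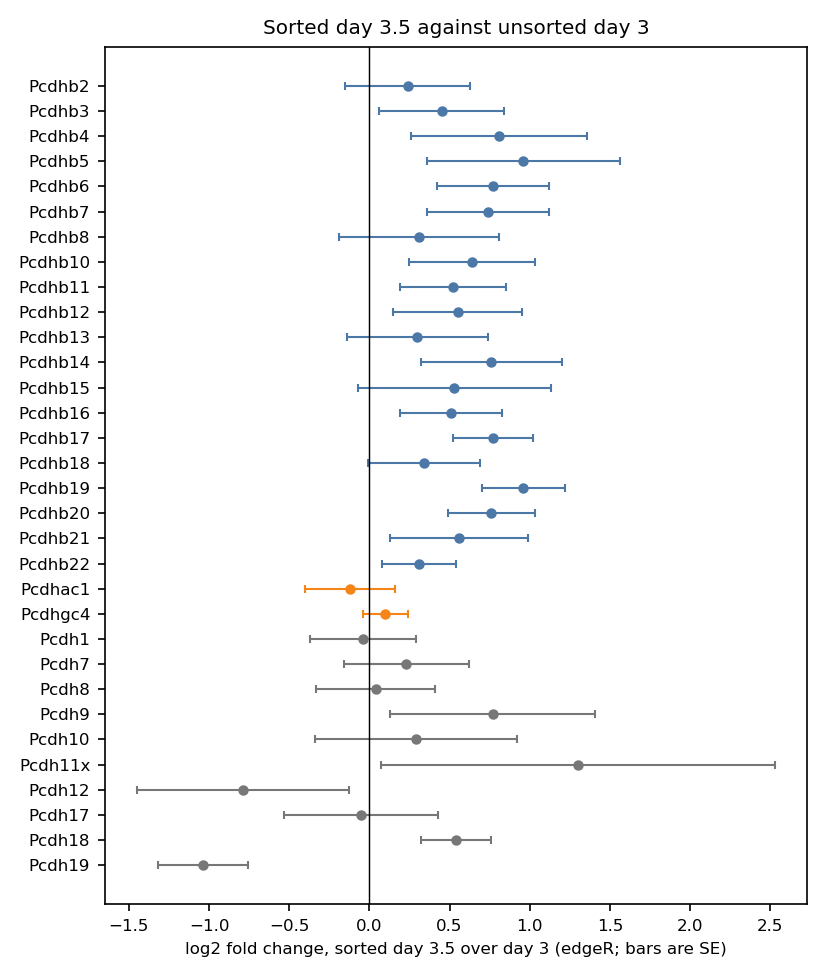
The log2 fold change of each tested member in sorted day 3.5 progenitors over unsorted day 3 (x axis), with bars of 1 standard error from edgeR. Genes run down the page by family. All 20 Pcdhb points lie right of 0, the Pcdhac1 and Pcdhgc4 rows lie near 0, and Pcdh19 lies farthest left at -1.04.

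Among genes known to act on the clusters, the de novo methyltransferases and Rest fell. The list held CTCF and cohesin, which loop cluster enhancers to promoters, the DNA methyltransferases that silence cluster promoters in the mouse embryo, and the repressors Rest, Setdb1 and Smchd1. Of 16 tested, 6 fell and 1 rose between day 3 and day 0, where 26.3% and 27.6% of all genes did. Dnmt3b, a de novo methyltransferase linked to promoter choice in the mouse clusters, had 49.4 ± 2.94 CPM at day 3 and 622 ± 134 CPM at day 0 (SD, n = 2 each; -3.65 ± 0.19 log2, edgeR adjusted p = 2.76e-06). Rest, which represses neuronal genes outside neurons, had 123 ± 3.22 and 612 ± 109 CPM at day 3 and day 0 (-2.31 ± 0.17, 1.33e-05). Dnmt3a had 134 ± 21.3 and 341 ± 68.1 CPM (-1.33 ± 0.19, 0.000392), and these 3 calls held in every alternative. All 3 were already called lower between day 1 and day 0, Dnmt3a only with day 0 replicate 1 in the fit (0.0107, and 0.0516 without it). Whether their levels bear on the protocadherin levels was not tested.

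Of 14 intracellular partners of protocadherins, 4 rose and 3 fell between day 3 and day 0, shares near those of all tested genes (27.6% and 26.3%). Ret, a receptor kinase that phosphorylates clustered protocadherins, had 20.7 ± 2.16 CPM at day 3 and 0.986 ± 0.000599 CPM at day 0 (4.39 ± 0.42 log2, edgeR adjusted p = 4.70e-05). Ptk2b, a focal adhesion kinase that clustered protocadherin tails inhibit, had 3.77 ± 0.635 CPM at day 3 and 20.2 ± 2.51 CPM at day 0 (-2.42 ± 0.26, 9.26e-05), and was lower again in sorted progenitors than at day 3 (-1.72 ± 0.25, 0.00291). The WAVE subunit Wasf2 (-0.83 ± 0.14, 0.00103) and Pdcd10 (-1.08 ± 0.21, 0.00231) also fell.

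Among other large cadherins, 8 of 12 tested genes rose and 1 fell between day 3 and day 0, where 27.6% and 26.3% of all tested genes did. Between sorted progenitors and day 3 neither edgeR nor DESeq2 called any (3 at an unadjusted p under 0.05 in edgeR), where edgeR called 0.435% of all genes higher and 2.93% lower. Fat4 and Dchs1, a receptor and ligand pair of planar polarity, had 80.7 ± 22.7 and 71.7 ± 15.3 CPM at day 3 and 0.802 ± 0.0768 and 2.54 ± 0.203 CPM at day 0 (6.66 ± 0.38 and 4.82 ± 0.43 log2, edgeR adjusted p = 3.86e-06 and 3.20e-05). Fat3, which shapes dendrites of the retina, had 180 ± 27.5 CPM at day 3 and 5.07 ± 0.865 CPM at day 0 (5.15 ± 0.27, 2.85e-06). Clstn2, a synaptic calsyntenin, had 31.8 ± 2.15 CPM at day 3 and 0.222 ± 0.0712 CPM at day 0 (7.12 ± 0.31, 1.52e-06).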

How the data were processed

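The authors sequenced polyadenylated RNA (TruSeq, per the labels' protocols) and deposited 3 tables for the 11 libraries: expected counts per gene symbol, FPKM, and log2 values. The submitters' processing notes name TopHat2 2.0.4 and HTSeq 0.6.1, also Cufflinks 2.1.1, limma, bcl2fastq 1.8.3 and CASAVA, and the builds mm10 and GRCm38, without roles. The sources used here do not say which annotation or counting strand was used, or how shared reads were treated. The deposited counts were whole except at 104 genes, and were rounded. The deposited log2 values equal log2 CPM of the count plus 0.5 (largest difference 5.15e-14 when recomputed). The deposited FPKM served for levels per length.

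Counts were tested in edgeR 4.0.16 (R 4.3.3) with TMM scaling, filterByExpr (minimum count 10), a group means model and the quasi-likelihood F test, Benjamini-Hochberg adjusted over all genes. Days 0 to 3 were fitted on 8 libraries, the sorted comparison on all 11. Replicates differed by more than counting noise. Alternatives used limma 3.58.1, DESeq2 1.42.0, RLE factors, no filter, FPKM with a pseudocount of 1 or 0.1 (at least 1 FPKM in 2 libraries), a replicate block, other libraries in the fit and leaving out each library in turn. Restricting Pcdhb to genes with few shared windows was chosen after seeing the data. No fold of a single gene is given with 3 or fewer counts in a group. Scripts were tested on simulated data. Values in every library are given for unclustered members that passed the filter, except Pcdh11x, which is given by its range. They are also given for the 4 highest and up to 3 best-supported members of each cluster, and for C-type members. The members and lists were chosen with earlier results of these data known. Wapl and Dchs2 were not analysed here. Limits from counts cover counting error only.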

Additional observations from a re-analysis of the deposited data

How the results depend on the processing

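The counts of members called were recomputed under other settings. The F test over days 0 to 3 called 26 members, 14 with log2(FPKM + 1) and 14 with log2(FPKM + 0.1), for which only 15 members passed the FPKM filter, and 22 to 27 when 1 library was left out. Day 3 over day 0 called 26 higher, 13 with either FPKM pseudocount and 24 to 27 with a library left out, and 0 to 1 lower (Pcdh1 at -0.96 without day 0 replicate 2). Pcdh1 reversed to 0.27 without day 0 replicate 1. Day 1 over day 0 called 8 higher, 1 with log2(FPKM + 1), 2 with log2(FPKM + 0.1), 1 without the FPKM filter and 3 to 7 with a library left out. Day 2 over day 1 called 13 higher and 1 lower. The higher count became 3, 7 and 4 under those 3 FPKM settings and 6 to 13 with a library left out. The lower count became 0 with log2(FPKM + 0.1) and without the FPKM filter, and 0 to 1 with a library left out. Day 3 over day 2 called 13 higher, 3 with log2(FPKM + 1), 0 with log2(FPKM + 0.1), 4 with the deposited log2 values and 0 to 16 with a library left out. Sorted progenitors against day 3 gave 0 calls, 1 higher and 1 lower in DESeq2, 1 lower without a filter on counts, and 0 to 1 higher with a library left out. With log2(FPKM + 1) and no FPKM filter, the F test over days 0 to 3 called 26 members. In that setting day 3 over day 0 called 27 higher and day 3 over day 2 called 9 higher. The number called over all tested genes moved with the setting too. The cause of these shifts was not tested. A day left with 1 library was assumed to vary like the others.

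With the replicate number as a block, day 3 over day 2 called 5 members. Deviations of same-numbered libraries correlated between -0.449 and 0.184 over 6 pairs of days, below 0 in 3 of them. With 2 libraries a day, these few values cannot show whether the numbers pair the samples. The block changed no other count by over 1.5 times. Over all genes, the median log2 fold change of day 3 over day 0 was 0.016, against 0.175 with the deposited log2 values, 0.144 with log2(FPKM + 0.1) and 0.124 with log2(FPKM + 1). For day 1 over day 0 it was 0.011, against 0.151 with the deposited log2 values. Under the other settings that kept all libraries it moved by less than 0.1. No called member changed sign in any setting. Depth limits the Pcdhb genes most at days 0 and 1, where the summed counts of a library were 37 to 166.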
